A study of Homo sapiens with 6 samples.

Results

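Gluconeogenic and urea-cycle genes were described in VHL-KO and vector control Caki-1 cells. The 7 genes were chosen by name from the 60708 genes in the table: FBP1, PCK1 and G6PC3 of gluconeogenesis, ASS1, ASL and ARG2 of the urea cycle and arginine breakdown, and ODC1, which uses the ornithine that arginase releases. Several of them are known for being lost in clear cell kidney cancer. Of the 7, 4 had at least 10 reads in any sample and were tested (G6PC3, ASL, ARG2 and ODC1), and 3 did not (FBP1, PCK1 and ASS1).

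Caki-1 is an established human clear cell carcinoma line that carries wild-type VHL, the gene whose loss marks most clear cell kidney cancers. RNA was sequenced from 3 vector control (VC) samples, wild-type cells infected with the lentiviral CRISPR/Cas9 vector alone, and from 3 VHL-KO samples, infected with the same vector encoding a guide RNA against VHL and selected with puromycin. VHL-KO cells were grown as clonal lines, and which clone and which guide were sequenced is not given in the sources used here, so the effect of the lost gene and the traits of a clone cannot be told apart. The replicates carry numbers from 1 to 3 and nothing says that they were separate cultures, so p-values measure only the spread between these samples, which may be technical. Reads counted on genes came to 31789923, 28463579 and 34881739 in VC 1, 2 and 3, and to 29139722, 22805385 and 22628246 in VHL-KO 1, 2 and 3.

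Gluconeogenesis makes glucose from lactate, glycerol and amino acids, and the proximal tubule of the kidney is, beside the liver, a main site of it. PCK1 starts the pathway from oxaloacetate, FBP1 takes the phosphate from fructose bisphosphate against the direction of glycolysis, and a glucose-6-phosphatase releases free glucose. In the urea cycle ASS1 and ASL build arginine from citrulline and aspartate and an arginase splits it into urea and ornithine, which ODC1 decarboxylates to putrescine in the rate-limiting step of polyamine synthesis.

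VHL itself, on chr3:10141778-10153667 (GRCh38, plus strand), was counted 1454, 1124 and 1522 times in VC 1, 2 and 3, against 929, 657 and 650 times in VHL-KO 1, 2 and 3. In TMM-normalized counts-per-million units (CPM), it was at 42.6, 37.8 and 40.1 in VC and at 34.8, 30.4 and 30.5 in VHL-KO cells. The groups did not overlap, with every VHL-KO sample under every VC sample. The fall was modest, from 40.2 ± 2.38 to 31.9 ± 2.49 CPM (mean ± SD of 3 samples), with the log2 fold change at -0.33 ± 0.11 (standard error; adjusted p = 0.0109 by the quasi-likelihood test of edgeR after Benjamini-Hochberg adjustment, lower in 3 of 3 VHL-KO samples). The call was kept in 10 of 15 alternatives, and with offsets for GC content and length the log2 fold change was -0.04. An edit by Cas9 can leave a transcript that is still counted, so the VHL level alone does not check the knockout. The study reported the loss of VHL protein in its VHL-KO Caki-1 cells by immunoblot. Of the exonic bases of VHL 23.5% overlap an annotated gene on the opposite strand. In bulk RNA, fewer cells of a type and less RNA per cell cannot be told apart, here and for every gene described.

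Of 10 genes known as targets of HIF, the transcription factors that VHL marks for degradation, 9 were higher in VHL-KO cells and 1 was lower, where 28.5% and 31.2% of all tested genes were, with a median log2 fold change of 1.69. Their summed level was 2150, 2140 and 2290 CPM in VC and 6440, 6400 and 6300 CPM in VHL-KO cells, without overlap. LDHA, which turns pyruvate into lactate, was the most abundant, at 1780 CPM in VC against 4730 in VHL-KO cells. Only EGLN3 was lower, a HIF prolyl hydroxylase named after its values were seen, at 1.72 ± 0.323 CPM in VC and 0.731 ± 0.309 in VHL-KO cells.

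Markers showed carcinoma cells of renal origin with little of the proximal tubule program in which gluconeogenesis normally runs. Of 9 renal carcinoma markers 8 were tested, 6 higher and 1 lower in VHL-KO cells (28.5% and 31.2% of all tested genes were). The lower one was NDUFA4L2, named after its values were seen, with a log2 fold change of -0.86 and groups that overlapped. The 9 markers summed to 8360 CPM in VC and 8810 in VHL-KO cells, most of it VIM (6430 and 6140 CPM), with PAX2 at 0 counts in every sample. Of 12 proximal tubule markers 4 were tested, 3 of them higher and 0 lower, beside the same shares of all genes, and GGT1, named after its values were seen, was called on 5 to 15 reads per sample. The sum of the 12, 435 CPM in VC and 506 in VHL-KO cells, was mostly the aminopeptidase ANPEP (314 and 389 CPM), while LRP2, the endocytic receptor megalin, and SLC22A6, an organic anion transporter, were at 0 counts in all 6 samples.

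Of 8 hepatocyte markers 2 were tested, of which SERPINA1 was lower, and APOA2 and TTR had no count. The list summed to 53.4, 58.9 and 50.7 CPM in VC and 23.8, 21.5 and 23.1 in VHL-KO cells, nearly all of it SERPINA1, which renal carcinoma lines can also express. Of 11 immune, endothelial and fibroblast markers 2 were tested, COL1A1 lower and PECAM1 higher, the latter on counts of 1, 5 and 0 (VC) and 14, 7 and 9 (VHL-KO). Of all tested genes 59.7% were called. The markers summed to 33.8 CPM in VC and 25.8 in VHL-KO cells, with COL1A1 at 33.7 and 25.2 CPM and with CD3E, COL3A1 and LUM at 0 in every sample.

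Between the genotypes, 2 of the 4 tested genes were higher (G6PC3 and ASL) and 2 were lower (ARG2 and ODC1) at an adjusted p under 0.05. Of all 17401 genes tested, 59.7% passed the same threshold, 28.5% as higher and 31.2% as lower, so a call by itself did not set a gene apart here. The split of all calls moved with the scaling: 4958 genes were called higher and 5436 lower with TMM factors, 3764 and 6737 when only library size was used, and 5712 and 4668 after upper quartile scaling. The median log2 fold change of all tested genes was -0.01, -0.20 and 0.10 under these settings, and each value given for a gene is relative to that centre. The size of the change separated the 4 genes more than the call: 440 genes (2.53% of those tested) fell further than ODC1 and 534 (3.07%) fell further than ARG2, whereas ASL and G6PC3 had higher log2 fold changes than 64.6% and 74.3% of tested genes.

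**Figure D1:**
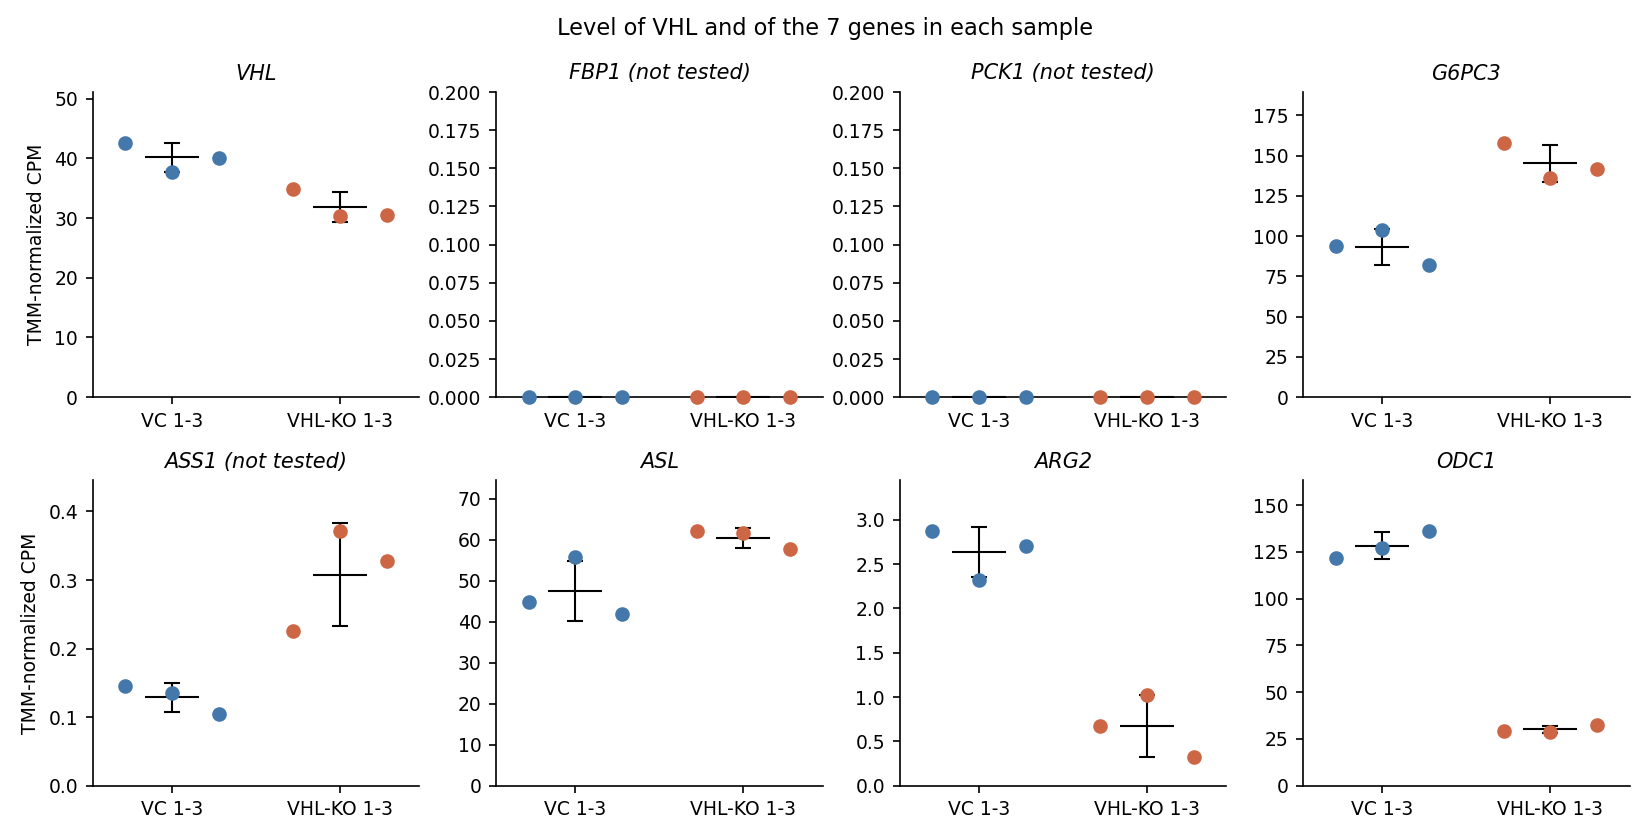
CPM after TMM scaling (linear axes from 0, a separate scale in each panel) of VHL and the 7 genes in the 3 VC samples (blue) and the 3 VHL-KO samples (orange), with the mean and SD of each group in black. ODC1 stood between 122 and 136 CPM in VC and between 28.5 and 32.2 in VHL-KO cells, and FBP1 and PCK1 had no reads in any sample.

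PCK1 and FBP1 were not detected in either genotype. PCK1, the cytosolic phosphoenolpyruvate carboxykinase (chr20:57561080-57568121, GRCh38, plus strand), had 0 counts in all 6 samples. FBP1, the fructose bisphosphatase of liver and kidney (chr9:94603133-94640249, minus strand), also had 0 counts in all 6. A count of 0 allows up to 3 counts, which was 0.0879, 0.101 and 0.0790 CPM in VC 1, 2 and 3 and 0.112, 0.139 and 0.141 CPM in VHL-KO 1, 2 and 3 (counting error only). With both groups at the floor, a change of either gene was not detectable at this depth and no fold was computed. None of the exonic bases of PCK1 lie in another annotated gene. For FBP1 14.8% do, all in PCAT7 on the opposite strand, which had counts of 22, 22 and 23 (VC) and 39, 29 and 27 (VHL-KO).

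The paralogs that could stand in for these enzymes differed in level. FBP2, the muscle form of fructose bisphosphatase, had 1 count in VC 1 and 0 elsewhere. PCK2, the mitochondrial carboxykinase, was present, with counts of 716, 691 and 658 (VC) and 444, 352 and 276 (VHL-KO). It went from 20.5 ± 2.99 to 15.3 ± 2.04 CPM, a log2 fold change of -0.42 (standard error 0.14) that passed the threshold and did not pass it with upper quartile factors (-0.31), without VC replicate 2 (-0.30) or without VHL-KO replicate 3 (-0.31), while with offsets for GC content and length it was -0.75. G6PC1, the glucose-6-phosphatase of liver and kidney, and the islet form G6PC2 had 0 counts in every sample.

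G6PC3, the glucose-6-phosphatase that most tissues express (chr17:44070620-44082151, plus strand), was thus the form these cells carried. It had counts of 3212, 3079 and 3111 (VC) and 4209, 2928 and 3021 (VHL-KO), which is 94.1, 104 and 81.9 CPM in VC 1, 2 and 3 and 158, 136 and 142 CPM in VHL-KO 1, 2 and 3. Every VHL-KO sample was above every VC sample once scaled, with VHL-KO 1 the highest. The mean rose from 93.2 ± 10.9 to 145 ± 11.3 CPM, 1.56-fold, with the log2 fold change at 0.64 ± 0.10 (standard error; adjusted p = 6.0e-06 by the quasi-likelihood test of edgeR after Benjamini-Hochberg adjustment, higher in 3 of 3 VHL-KO samples). With offsets that remove each library's trend with GC content and length, the log2 fold change was 0.12 (standard error 0.06) and no longer passed (adjusted p = 0.0812 by the quasi-likelihood test of edgeR after Benjamini-Hochberg adjustment, in a range of 2.0e-09 to 0.0812 over 15 alternatives). Of its exonic bases 23.9% overlap HDAC5, a histone deacetylase on the opposite strand, which rose from 8.50 ± 1.31 to 38.9 ± 2.48 CPM. Whether counting used strand is not given in the sources used here, so reads of the shared stretch cannot be told apart, and the part of HDAC5 in the G6PC3 value was not tested.

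Other gluconeogenic genes around these steps moved in both directions. Of 15 genes that carry carbon to or from the pathway 12 were tested, 7 lower and 3 higher (31.2% and 28.5% of all tested genes were), with a median log2 fold change of -0.40 against -0.01 for all tested genes. The number lower was 5 when VHL-KO 3 was left out, and 6 when VC 2 was or with upper quartile factors. MPC2, a subunit of the mitochondrial pyruvate carrier, went from 80.6 ± 1.82 to 36.7 ± 0.473 CPM (log2 fold change -1.14). GOT2, the mitochondrial aspartate aminotransferase, went from 208 ± 9.98 to 111 ± 4.67 CPM (-0.91). Also lower were PCK2 and, named after their values were seen, MPC1, MDH1, GOT1 and GPT2. The 3 that rose were PC, SLC37A4 and MDH2, of which the last 2 were named after their values were seen. PC, the pyruvate carboxylase that makes oxaloacetate, went from 20.6 ± 3.68 to 42.3 ± 5.58 CPM (1.04), and SLC37A4, which brings glucose 6-phosphate to G6PC3 in the endoplasmic reticulum, from 16.4 ± 2.06 to 25.0 ± 1.21 CPM (0.61).

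Of 12 listed regulators of the pathway 8 were tested, 5 higher and 1 lower, beside 28.5% and 31.2% of all tested genes, with a median of 0.48. Using library size alone, 4 were higher and 2 lower. The coactivator PPARGC1A rose from 1.97 ± 0.132 to 4.33 ± 1.19 CPM (log2 fold change 1.13) and the transcription factor FOXO1 from 3.61 ± 0.688 to 7.63 ± 0.892 CPM (1.07), both low in absolute level. CEBPB, CRTC2 and PPARA were the other 3 that rose, named after their values were seen. EZH2, the methyltransferase of histone H3 in Polycomb repression, fell from 54.1 ± 4.92 to 23.1 ± 2.14 CPM (-1.23). The liver and tubule factor HNF4A did not reach 10 reads in any sample.

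Of 14 listed enzymes that run glycolysis at the steps gluconeogenesis bypasses 12 were tested, 6 higher and 3 lower (28.5% and 31.2% of all tested genes were), with a median of 0.51. Using library size alone, 4 were higher and 3 lower. PFKL, a phosphofructokinase, rose from 176 ± 24.4 to 530 ± 27.1 CPM (log2 fold change 1.59) and PFKFB4, which sets the fructose 2,6-bisphosphate level that inhibits fructose bisphosphatase, from 17.9 ± 1.93 to 95.6 ± 6.64 CPM (2.42). The hexokinase HK3 was called higher on 10 reads of VHL-KO 3 alone, with 0 counts in the other 5 samples, and without that sample it was not tested. The other 3 that rose were HK1, PFKP and PKM, and the 3 that fell were PFKM, PFKFB2 and PFKFB3, all named after their values were seen.

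**Figure D2:**
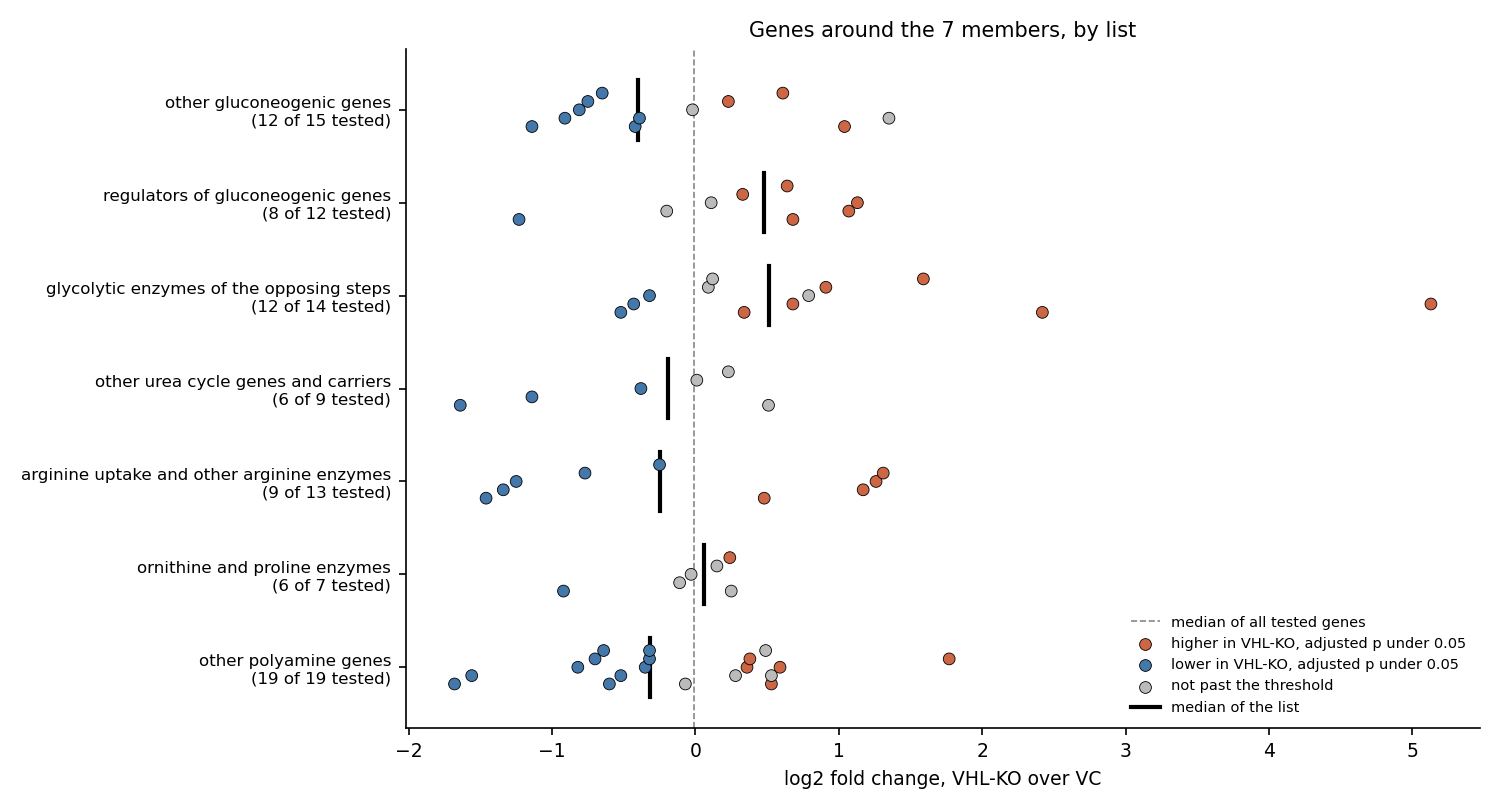
Log2 fold change (VHL-KO over VC, horizontal axis) of every tested gene in 7 lists around the named genes, with 1 point per gene, coloured where the adjusted p was under 0.05 (orange higher, blue lower) and grey otherwise; black bars mark list medians and the dashed line the median of all tested genes (-0.01). Most polyamine and gluconeogenic points lie below 0, and the point at 5.13 is HK3, which rests on the reads of a single sample.

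In the urea cycle, ASS1, the argininosuccinate synthase (chr9:130444961-130501274, plus strand), was near the limit of detection. It had 5, 4 and 4 counts in VC 1, 2 and 3 and 6, 8 and 7 in VHL-KO 1, 2 and 3, or 0.146, 0.135 and 0.105 CPM in VC and 0.225, 0.371 and 0.328 CPM in VHL-KO cells. The groups did not overlap, but no sample had more than 8 reads. Summed over samples, 13 reads in VC and 21 in VHL-KO cells gave a ratio of 2.36 with a 95% exact binomial interval of 1.13 to 5.14, which covers counting error only. ASS1 was below the read filter and had no test. When genes with at least 1 count were kept, its log2 fold change was 1.19 and did not pass the threshold (adjusted p = 0.298 by the quasi-likelihood test of edgeR after Benjamini-Hochberg adjustment). The genome holds many processed copies of ASS1: 14 pseudogenes were listed, 2 with any reads, and together they had counts of 12, 6 and 7 (VC) and 11, 4 and 4 (VHL-KO), so reads of gene and copies are uncertain. Summed with them the log2 fold change was 0.60 (adjusted p = 0.331 by the quasi-likelihood test of edgeR after Benjamini-Hochberg adjustment).

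ASL, the argininosuccinate lyase of the next step (chr7:66075800-66094697, plus strand), was well expressed. It had counts of 1529, 1654 and 1585 (VC) and 1656, 1327 and 1229 (VHL-KO), which is 44.8, 55.7 and 41.8 CPM in VC 1, 2 and 3 and 62.0, 61.5 and 57.6 CPM in VHL-KO 1, 2 and 3. The groups did not overlap, although VC 2 came within a few CPM of VHL-KO 3. The mean rose from 47.4 ± 7.32 to 60.4 ± 2.38 CPM, 1.27-fold, with the log2 fold change at 0.35 ± 0.11 (standard error; adjusted p = 0.00788 by the quasi-likelihood test of edgeR after Benjamini-Hochberg adjustment, higher in 3 of 3 VHL-KO samples). This call did not hold under every setting: with library size alone the log2 fold change was 0.16 and with GC and length offsets 0.01 (adjusted p = 0.195 and 0.913 by the quasi-likelihood test of edgeR after Benjamini-Hochberg adjustment, in a range of 2.4e-05 to 0.913 over 16 alternatives). The pseudogene ASLP1 had 3 to 15 counts per sample, and adding them left the log2 fold change of ASL at 0.35. Of its exonic bases 9.3% lie in a readthrough gene on the same strand that had no count.

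ARG2, the mitochondrial arginase that the kidney expresses (chr14:67619920-67651708, plus strand), was low in both groups and lower in VHL-KO cells. It had 98, 69 and 103 counts in VC 1, 2 and 3 and 18, 22 and 7 in VHL-KO 1, 2 and 3, or 2.87, 2.32 and 2.71 CPM in VC and 0.674, 1.02 and 0.328 CPM in VHL-KO cells. The lowest VC sample was above the highest VHL-KO sample, and the VHL-KO samples varied more among themselves, with VHL-KO 3 the lowest. The mean went from 2.64 ± 0.282 to 0.674 ± 0.346 CPM, 3.91-fold lower, with the log2 fold change at -1.96 ± 0.32 (standard error; adjusted p = 1.1e-05 by the quasi-likelihood test of edgeR after Benjamini-Hochberg adjustment, lower in 3 of 3 VHL-KO samples). Leaving out VHL-KO replicate 3 gave -1.65, and leaving out VHL-KO replicate 2 gave -2.35. Of its exonic bases 39.6% overlap VTI1B on the opposite strand, which had counts of 1409, 1168 and 1582 (VC) and 1172, 1072 and 832 (VHL-KO), or 40.7 ± 1.26 and 44.2 ± 5.34 CPM, and did not pass the threshold. Its part in the ARG2 counts was not tested. The liver arginase ARG1 had 0 counts in all samples.

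The mitochondrial entry to the cycle was low or not detected. CPS1, which makes carbamoyl phosphate, had counts of 46, 27 and 61 (VC) and 36, 32 and 23 (VHL-KO), 1.29 ± 0.353 and 1.30 ± 0.206 CPM, and did not pass the threshold (log2 fold change 0.01, standard error 0.32). OTC, which joins it to ornithine, had 4 counts in VC 1 and 0 in the other samples. Of 9 other urea cycle genes and carriers 6 were tested, 3 lower and 0 higher (31.2% and 28.5% of all tested genes were), with a median of -0.19. With upper quartile factors 2 were higher and 2 lower. Of 4 tested carriers of the inner mitochondrial membrane 3 were lower, and SLC25A29, a carrier of basic amino acids named after its values were seen, did not pass the threshold (log2 fold change 0.23). SLC25A15, the ornithine carrier, was 3.12-fold lower, from 1163, 952 and 1482 counts to 294, 242 and 244 (log2 fold change -1.64). SLC25A13, the aspartate glutamate carrier citrin, went from 71.4 ± 3.98 to 32.5 ± 2.74 CPM (-1.14) and SLC25A12, its paralog, from 15.7 ± 1.83 to 12.1 ± 0.953 CPM (-0.38). SLC25A12 was called in 8 of 15 alternatives: the call was lost with upper quartile factors (-0.27) and on dropping VC 1, VC 3, VHL-KO 1 or VHL-KO 3, and the sign turned with GC and length offsets (0.07).

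Genes that bring arginine into the cell or use it in other ways moved in both directions. Of 13 listed 9 were tested, 4 higher and 5 lower (28.5% and 31.2% of all tested genes were), with a median of -0.25. The arginine transporter SLC7A2 went from 14.5 ± 0.551 to 5.32 ± 1.17 CPM (log2 fold change -1.46) and DDAH1, which breaks down methylated arginine, from 11.8 ± 2.08 to 4.66 ± 0.516 CPM (-1.34). The others that fell were SLC7A1, SLC7A6 and SLC3A2. SLC7A7, a subunit of another arginine transporter, rose from 4.06 ± 0.360 to 10.1 ± 1.10 CPM (1.31), as did NOS3, GAMT and DDAH2. All but SLC7A2, DDAH1 and SLC7A7 were named after their values were seen.

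ODC1, the ornithine decarboxylase (chr2:10439968-10448327, minus strand), fell about as far as ARG2, with less spread between samples. It had 4170, 3769 and 5178 counts in VC 1, 2 and 3 and 787, 614 and 686 in VHL-KO 1, 2 and 3, which is 122, 127 and 136 CPM in VC and 29.5, 28.5 and 32.2 CPM in VHL-KO cells. The groups stood far apart, with little spread within either. The mean went from 128 ± 7.27 to 30.0 ± 1.92 CPM, 4.28-fold lower, with the log2 fold change at -2.10 ± 0.10 (standard error; adjusted p = 9.8e-15 by the quasi-likelihood test of edgeR after Benjamini-Hochberg adjustment, lower in 3 of 3 VHL-KO samples). Over 16 alternatives it was between -2.29 and -1.98 and always passed the threshold. No exonic base of ODC1 lies in another annotated gene, and the listed pseudogene had 0 counts. Per kilobase of transcript, ODC1 was at 51.9 CPM in VC, above 91.8% of 17355 genes, and at 12.1 CPM in VHL-KO cells, above 75.0% of them. On that scale G6PC3 went from 59.3 to 92.2, ASL from 22.1 to 28.2 and ARG2 from 1.38 to 0.353 CPM per kilobase, so ODC1 ranked between G6PC3 and ASL in VC and between ASL and ARG2 in VHL-KO cells.

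The sequences before the starts of ODC1 and ARG2, the tested genes that fell, are shown with the motifs found in them. RefSeq promoter windows (GRCh38.p14) were found for 6 of the 7 genes, 10 windows in all, and the 250 bases before each start were searched on both strands for 4 motifs. These were ACGTG and GCGTG, core letters that HIF proteins bind, CACGTG, the E-box bound by MYC and related factors, and TGACGTCA, the cyclic AMP response element. Every CACGTG holds ACGTG on both strands, so it counts under both motifs. Of 35116 such windows in the genome, 18.5% hold ACGTG, 32.2% GCGTG, 6.3% CACGTG and 1.6% TGACGTCA. The window of ODC1 at chr2:10448328-10448577 (minus strand) holds GCGTG 3 times, beginning 209, 206 and 17 bases before the start on either strand, the farther 2 overlapping. That of ARG2 at chr14:67619670-67619919 (plus strand) holds TGACGTCA 2 times, 172 and 64 bases before the start, and ACGTG 1 time, 157 bases before it. Capitals mark these matches, which are descriptions of the letters and not measured binding sites. None of the 4 motifs occurred in both of these windows, and a shared cause of the falls was not tested.
ODC1 upstream: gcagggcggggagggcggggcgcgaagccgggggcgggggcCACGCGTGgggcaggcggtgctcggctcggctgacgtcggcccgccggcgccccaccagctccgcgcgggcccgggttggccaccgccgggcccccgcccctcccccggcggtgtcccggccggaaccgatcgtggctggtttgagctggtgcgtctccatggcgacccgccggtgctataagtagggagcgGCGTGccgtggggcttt
ARG2 upstream: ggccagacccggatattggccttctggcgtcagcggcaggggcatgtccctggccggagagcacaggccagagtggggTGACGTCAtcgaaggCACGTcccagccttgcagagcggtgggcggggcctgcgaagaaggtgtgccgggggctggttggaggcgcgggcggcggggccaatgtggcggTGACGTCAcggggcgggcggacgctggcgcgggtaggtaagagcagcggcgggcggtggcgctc

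A further RefSeq start of ODC1 lies downstream, inside intron 1 of the canonical transcript. The 250 bases before it hold CACGTG 1 time, 29 bases from that start, and a further CACGTG lies just after the start. Both stretches are given because MYC, which is known to bind E-boxes in ODC1, was among the polyamine genes listed. Bases after a start were searched for ODC1 alone, so the 6.3% of windows with CACGTG gives no rate for the second match. A part of MYC in the change of ODC1 was not tested. Both stretches lie on the minus strand, at chr2:10448024-10448053, before the inner start, and at chr2:10447990-10448019, where the E-box is inside exon 1 of an inner transcript. The E-box is in capitals.
ODC1 E-box 1: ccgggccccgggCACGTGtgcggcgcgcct
ODC1 E-box 2: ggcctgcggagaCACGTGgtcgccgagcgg

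Of the other genes, G6PC3 had CACGTG in all 3 of its overlapping windows and ASS1 in 1 of 2, FBP1 had GCGTG 1 time, and ASL had none of the 4 motifs. No occupancy was measured in these samples.

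Polyamine genes around ODC1 were lower in 10 and higher in 5 of 19 tested, where 31.2% and 28.5% of all tested genes were, with a median of -0.32. Using library size alone, 11 were lower and 2 higher, and with GC and length offsets 8 were lower and 4 higher. AMD1, which supplies the aminopropyl donor, went from 49.7 ± 8.51 to 16.9 ± 2.19 CPM (log2 fold change -1.56). AZIN1, the antizyme inhibitor that keeps ornithine decarboxylase stable, went from 75.6 ± 20.7 to 23.6 ± 1.59 CPM (-1.68), with counts of 2473, 1682 and 3709 (VC) and 612, 485 and 542 (VHL-KO). Both kept their call with GC and length offsets at smaller sizes, -0.96 for AMD1 and -1.06 for AZIN1. The synthases SRM and SMS, named after their values were seen, were lower too. SAT1, the acetyltransferase that marks polyamines for export and oxidation, rose from 29.2 ± 2.06 to 99.9 ± 6.77 CPM (1.77). The oxidases SMOX and PAOX, named after their values were seen, did not pass the threshold (log2 fold change -0.07 and 0.49). OAZ1, the antizyme that targets ornithine decarboxylase for degradation, rose from 350 ± 41.6 to 527 ± 19.1 CPM (0.59), and by 0.25 with the offsets. The other 3 that rose were OAZ2, AZIN2 and ATP13A2, named after their values were seen. MYC fell from 210 ± 10.8 to 118 ± 6.79 CPM (-0.82).

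Of 7 genes of ornithine and proline metabolism, an alternative route for ornithine, 6 were tested, with a median of 0.06. OAT, the ornithine aminotransferase, went from 80.5 ± 7.50 to 42.7 ± 3.90 CPM (log2 fold change -0.92) and was -0.59 with GC and length offsets.

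Over the 7 lists together, 72 of 89 genes were tested, 24 higher and 30 lower, a share of 75.0% called against 59.7% of all genes, with a median of 0.05. The balance depended on the scaling: with library size alone 16 were higher and 34 lower, and with upper quartile factors 29 were higher and 24 lower.

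Fold changes in this comparison followed GC content. The median log2 fold change was -0.39 for the 261 genes with a transcript GC content under 35%, -0.38 for the 6076 between 35 and 45%, 0.02 for the 5961 between 45 and 55%, 0.36 for the 4383 between 55 and 65% and 0.61 for the 674 with 65% or more. G6PC3 and ASL, the 2 that rose, have GC contents of 60.6% and 59.0%, in a range where the median was 0.36, close to ASL and under G6PC3. ARG2 and ODC1, the 2 that fell, have 45.4% and 49.4%, in the range with a median of 0.02, but ARG2 is at its edge with the range below, where the median was -0.38. With the offsets ARG2 was at -1.84 and ODC1 at -2.01 and both passed the threshold, while neither G6PC3 nor ASL did. VHL, at 46.3% also near that edge, was at -0.04 and did not pass (adjusted p = 0.703 by the quasi-likelihood test of edgeR after Benjamini-Hochberg adjustment, in a range of 2.9e-04 to 0.703 over 15 alternatives). Such offsets take out any biological change tied to GC content as well, and which of these accounts for the trend was not tested.

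**Figure D3:**
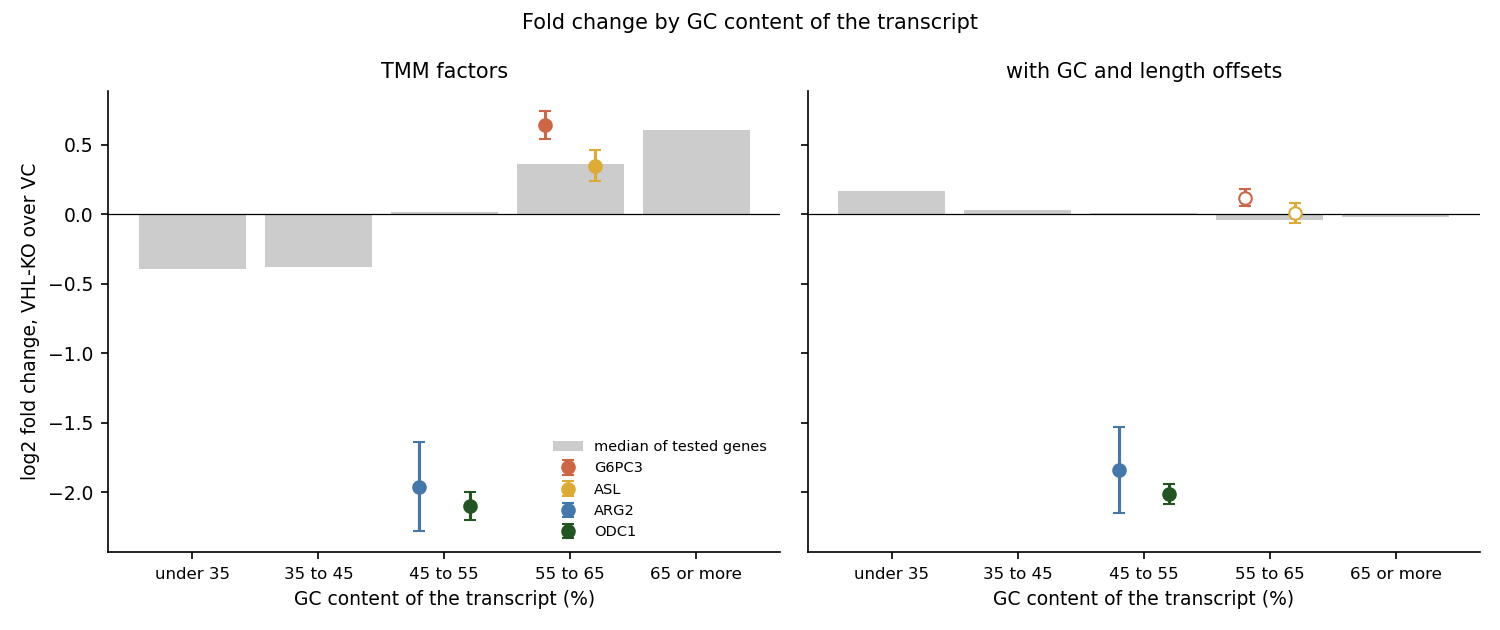
Log2 fold change (VHL-KO over VC) against the GC content of the transcript, with TMM factors (left) and with offsets for GC content and length (right); grey bars are medians of the tested genes in each range and points are the 4 tested genes with standard errors, filled where the adjusted p was under 0.05. On the left ASL lies near the bar of its range (0.36) and G6PC3 above it, both are closer to 0 on the right, while ARG2 and ODC1 lie far below the bars on both sides.

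**Figure D4:**
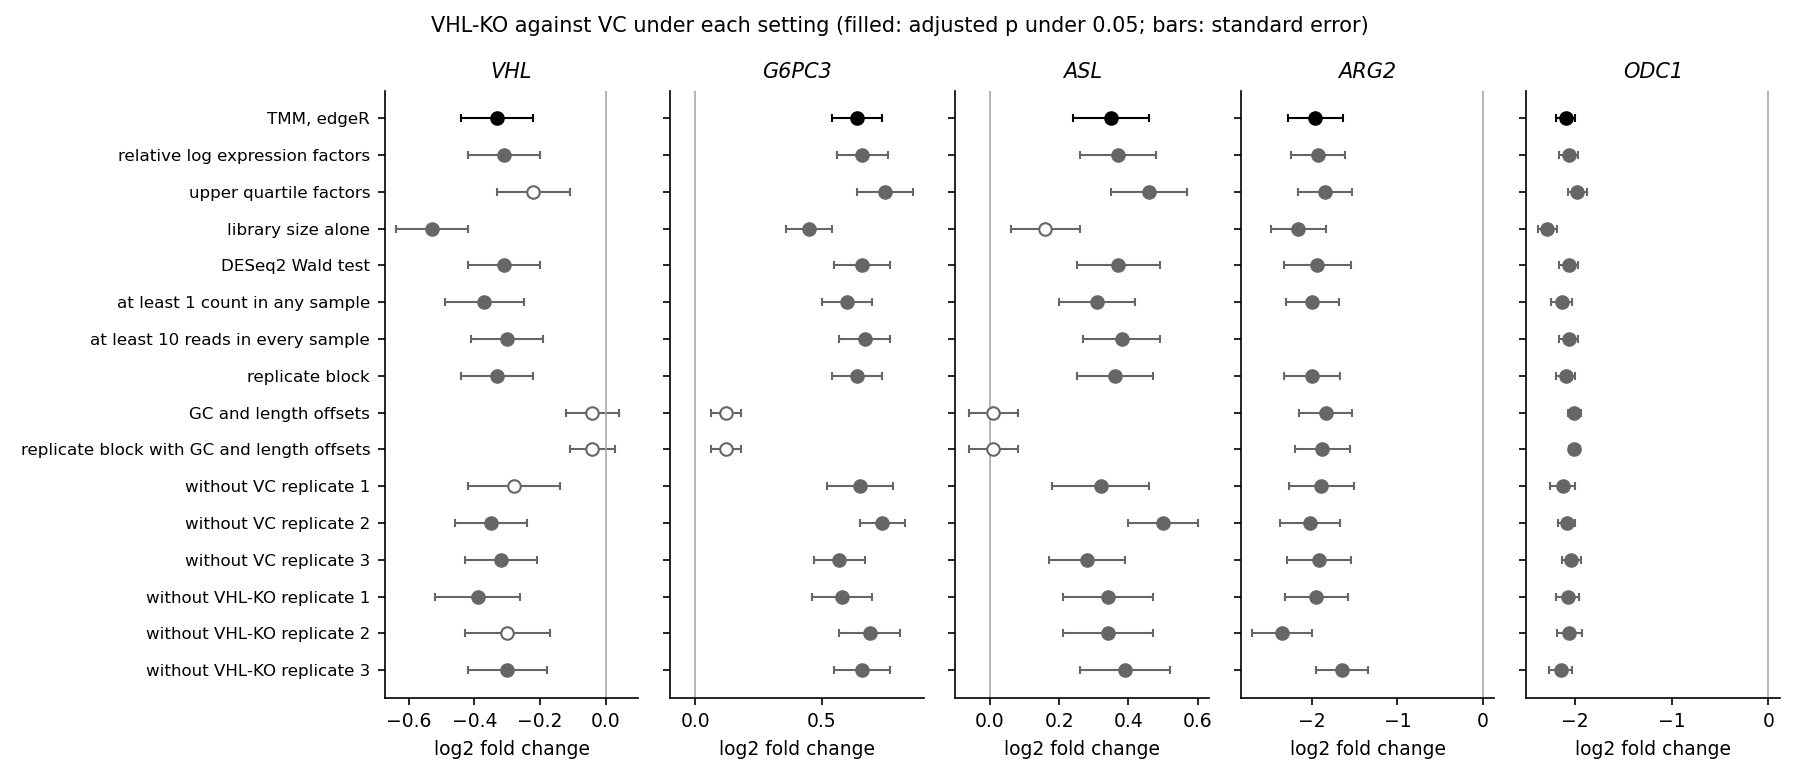
Log2 fold change with standard error (horizontal axes, a separate scale in each panel) of VHL and the 4 tested genes under each setting (listed on the left), filled where the adjusted p was under 0.05. ODC1 stays between -2.29 and -1.98, G6PC3 drops to 0.12 and ASL to 0.01 with the offsets, and ARG2 has no value when 10 reads were required in every sample because VHL-KO 3 had 7.

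Genes whose log2 CPM closely followed each tested gene over the 6 samples were taken among about 10908 genes whose scaled counts averaged 100 or more, as a description. Among the closest were TAF4 for ODC1 (Pearson r 0.9997), CMSS1 and VEGFC for ARG2 (0.9981 and 0.9955), SNCG and ZNF394 for G6PC3 (0.9992 and 0.9991) and OGFOD3 and STUB1 for ASL (0.9985 and 0.9984). With 6 samples in 2 separated groups such values are common: 21.3% of these genes had an r over 0.95 with ODC1, 2.78% with ASL and 2.56% with ARG2, and 1530 genes did with G6PC3.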

How the data were processed

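Total RNA of 3 VC and 3 VHL-KO samples was sequenced on an Illumina NovaSeq. Per the study's methods and the submitters' processing notes, Trim Galore with cutadapt trimmed the reads, STAR placed those of at least 20 nt on GRCh38.p13, SAMtools kept the uniquely mapped ones and HTSeq made the gene counts. The authors deposited the raw count of each gene in each sample, with no normalization or filter. Versions, the annotation release, the counting mode and strand settings are not given in the sources used here. Reads that match several places were dropped, which lowers genes with close copies.

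VHL-KO was compared with VC in edgeR 4.0.16 under R 4.3.3 (TMM factors, quasi-likelihood F test, two-sided, Benjamini-Hochberg adjustment) over the 17401 genes that reached 10 reads in any sample, at an adjusted p under 0.05. Standard errors are the absolute log2 fold change over the square root of F. CPM uses the TMM-scaled totals of the tested genes. Positions, GC content and transcript length came from GENCODE release 44 (GRCh38), which matched 17355 tested genes. Totals ran from 22628246 to 34881739 counts, and a count of 0 allows up to 3. The edgeR fit was tested on simulated data.

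Alternatives were factors by upper quartile or by relative log expression, no factors beyond library size, DESeq2 1.42.0, filters of 1 count in any sample and 10 reads in every sample, each sample left out, the replicate number as a block, offsets for GC content and length (natural splines, 5 degrees of freedom) with and without that block, and ASS1, ASL and ODC1 summed with their pseudogenes. VHL and the 7 genes were reported in full; from each of 7 pathway lists, written from general knowledge, the 3 called genes that changed most in absolute log2 terms were named, plus FBP2, PCK2, G6PC1, ARG1, CPS1, OTC, OAZ1, AZIN1 and MYC. Further genes were named after their values were seen. Some genes that these rules select are not reported here by name. Marker lists were given by counts, summed level and most abundant gene. The members and lists were chosen with earlier results of these data known. Plots used matplotlib 3.10.9 (Python 3.11.15).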

Additional observations from a re-analysis of the deposited data

How the results depend on the processing

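ODC1 and ARG2 were lower and past the threshold in every alternative that gave them a value, between -2.29 and -1.98 for ODC1 and between -2.35 and -1.65 for ARG2 (log2). With at least 10 reads required in every sample ARG2 was not tested, and 1 of the 7 genes was called lower. G6PC3 lost its call with GC and length offsets (0.12), also with the replicate block (0.12), and ASL with library size alone (0.16), with the offsets (0.01) and with both offsets and block (0.01). The number of the 7 called higher was then 1 with library size alone and 0 with the offsets, with or without the block. Leaving out each sample gave 0.57 to 0.74 for G6PC3 and 0.28 to 0.50 for ASL, all past the threshold. The sign of SLC25A12 turned with offsets (0.07, also 0.07 with the block). CPS1, not called under any setting, was at -0.19 with library size alone, -0.03 with genes of at least 1 count, 0.40 with the offsets (0.40 with the block too), and -0.16 to 0.22 with each sample left out (negative when VC replicate 2, at -0.16, VHL-KO replicate 1, at -0.01, or VHL-KO replicate 2, at -0.09, was dropped). The cause of these changes was not tested. VHL lost its call with upper quartile factors (-0.22) and on dropping VC replicate 1 (-0.28) or VHL-KO replicate 2 (-0.30). Replicate numbers are only shared labels here: deviations from the group means of same-numbered samples correlated across genes at 0.06, -0.00 and 0.03, the first of these the highest of the 9 values between groups. With the replicate block 10284 genes were called in place of 10394, and G6PC3, ASL, ARG2 and ODC1 kept their calls. Depth limits FBP1 and PCK1, at 0 counts, ASS1, at 4 to 8, and ARG2 in VHL-KO cells, where 7 to 22 reads were counted per sample.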

Other observations

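RNA of several enzymes near these pathways was present at unequal levels. LDHB, the lactate dehydrogenase subunit that favours pyruvate formation, had counts of 27, 25 and 78 (VC) and 30, 28 and 27 (VHL-KO), with VC 3 apart from the other samples. It was at 0.943 CPM per kilobase in VC and in VHL-KO cells alike and did not pass the threshold (log2 fold change -0.02). LDHA was at 792 CPM per kilobase in VC and 2110 in VHL-KO cells. In creatine synthesis, which takes arginine at its entry, GATM had 7 or fewer counts in each sample, while GAMT, the methyltransferase of the next step, rose from 37.0 ± 4.25 to 83.4 ± 6.60 CPM (log2 fold change 1.17). NOS1, NOS2 and the proline dehydrogenase PRODH had no count in any sample. HDAC5, met here only as the neighbour of G6PC3, rose 4.58-fold with TMM factors, further than any of the 7 genes rose. These genes were chosen after their values were seen.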
